A study of Mus musculus with 6 samples.

Results

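The genes described here are 10 transcription factors that direct the differentiation of growth plate and articular chondrocytes: Sox9, Sox5, Sox6, Runx2, Runx3, Sp7, Mef2c, Nkx3-2, Foxa2 and Atoh8. They were taken by name from the 41388 genes of the RNA-seq count files. The list was drawn up for their known function, but with earlier results of these data known. Atoh8 was picked also because its levels in the 2 genotypes did not overlap. The genotype difference of Atoh8 is therefore given as a description, without a test. The study compared chondrocytes isolated from the cartilage of the femoral head of male mice, aged 21 days, in 3 samples of Postn-/- and 3 of wt, to find transcripts that differ at baseline between the genotypes. Postn-/- mice were homozygous for a global null allele of periostin (Postn tm1Jmol), a matricellular protein of the extracellular matrix, and the strain is labelled B6/129 (background B6129SF2/J in the study's methods). wt mice were of the same strain with an intact gene. The cells were kept for 2 days in culture medium with serum and received no treatment. Because the deletion is global and not limited to cartilage, the cells came from animals that carried the null allele in every tissue.

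SOX9 is the master factor of the chondrocyte lineage and switches on the genes of the cartilage matrix, such as collagen II and aggrecan. SOX5 and SOX6 carry no activation domain of their own and help SOX9 to bind and drive these genes. RUNX2, RUNX3 and MEF2C act later and push chondrocytes toward hypertrophy, the enlarged state in which collagen X, MMP-13 and mineralization genes are made, and SP7 (osterix) acts with RUNX2 in hypertrophic chondrocytes and osteoblasts. NKX3-2 holds back this maturation in part by repressing Runx2, FOXA2 promotes hypertrophic genes, and ATOH8 is a basic helix-loop-helix factor expressed in developing skeletal elements.

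All 10 genes were above the filter used for testing, a CPM (the count scaled to a common library total) over 1 in 2 or more libraries. For 8 of them this held in all 6 libraries. Nkx3-2 passed through 1 Postn-/- and 2 wt libraries and Foxa2 through 2 Postn-/- and 1 wt libraries. Total counts ran from 20587640 to 26572260 per library, at which 3 reads correspond to 0.113 to 0.146 CPM. All levels below are CPM after TMM normalization, which corrects each library total for composition, and n is 3 libraries per genotype unless stated. The targeted gene Postn was measured at 4.66, 4.27 and 5.67 CPM in Postn-/- replicates 1, 2 and 3 and at 10.1, 10.3 and 6.90 CPM in wt replicates 1, 2 and 3. Each Postn-/- library was thus below each wt library, although 105 to 119 reads were still counted, and where in the gene the reads of the null allele fall cannot be seen in gene counts. The chi-square of counts per degree of freedom was 33.4 to 81.3 for the pairs of wt replicate 1 with the other 5 libraries and 26.5 to 58.7 for the 10 pairs without it, ranges that overlapped. Each library was also left out in turn. Chondrocyte markers were abundant in all libraries, with a summed level over 9 genes of 31232 to 42214 CPM in Postn-/- and 26209 to 37212 CPM in wt.

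Promoter sequence is shown for the members whose values are discussed most, Atoh8, with the genotypes apart, and the Runx genes, which with Sp7 and Mef2c varied widely between wt libraries. RefSeq promoters (build GRCm38.p6, 250 bases before to 50 after each annotated start) were at hand for 8 of the 10 members, Sox9 and Sp7 being the exceptions. The RUNX motif TGTGGT, searched on both strands, occurred in 16.8% of 32851 such 300-base windows, and 2 or more copies in 1.81%. The Runx2 window, on chromosome 17, held 3 copies, which 0.183% of windows reach. All are read here as the reverse complement ACCACA, printed in capitals in the 30-base stretches around them (chr17:44814690-44814719 and chr17:44814585-44814614, minus strand). Both stretches lie within the counted Runx2 gene (chr17:44495987-44814797), so upstream refers here to the RefSeq start only.
Runx2 upstream stretch: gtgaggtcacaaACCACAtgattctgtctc
Runx2 stretch just after the start site: ctcacaaacaACCACAgaACCACAagtgcg
The first Runx3 promoter held 2 copies of the same word, 2 bases apart like the pair just after the Runx2 start (chr4:135120395-135120644, plus strand, the 250 bases before the start, RUNX motif in capitals).
Runx3 upstream: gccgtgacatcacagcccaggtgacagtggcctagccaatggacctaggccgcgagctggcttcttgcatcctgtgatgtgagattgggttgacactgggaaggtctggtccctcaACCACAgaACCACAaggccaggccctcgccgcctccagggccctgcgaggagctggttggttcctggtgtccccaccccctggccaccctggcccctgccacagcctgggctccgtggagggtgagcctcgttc
The Runx2 promoter and the first Runx3 promoter thus each carry a pair of the motif that their own family binds, which is a match of letters and not a measured site. The other Runx3 promoter (chr4:135152295-135152594) held 0 copies. Sox6 promoters at chr7:115846091-115846390 and chr7:115824661-115824960 held 1 copy each.
The Atoh8 promoter held none of the RUNX words, 1 SOX word (ACAAAG, in 18.7% of all windows) and 2 E-boxes (CANNTG, the word bound by basic helix-loop-helix factors; 2 or more in 39.6% of windows). They are in capitals in the 250 bases before its start (chr6:72235578-72235827, minus strand).
Atoh8 upstream: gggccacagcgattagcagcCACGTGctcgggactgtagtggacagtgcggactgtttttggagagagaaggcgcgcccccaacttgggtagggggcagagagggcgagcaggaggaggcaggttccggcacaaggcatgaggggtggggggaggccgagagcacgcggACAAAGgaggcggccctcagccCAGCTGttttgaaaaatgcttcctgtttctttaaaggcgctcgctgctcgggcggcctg
The MEF2 word (consensus CTA and TAG 4 bases apart), in 3.69% of windows, was found in 1 of the members' windows, a Sox6 promoter (chr7:116030998-116031297, minus strand).

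Compared per kilobase of gene length, Sox9 was by far the most abundant of the 10, at 100.8 ± 16.4 CPM per kilobase (SD over the 6 libraries). It stood above 95.7% of all 14533 tested genes on that scale. Atoh8 (22.3 ± 8.08 CPM per kilobase), Mef2c (21.0 ± 8.21), Sox6 (17.5 ± 1.62) and Sp7 (15.3 ± 6.55) followed, and neighbours in this order overlapped in their ranges. The place of Atoh8 differed by genotype, with means of 28.7 CPM per kilobase in Postn-/-, second of the 10, and 15.8 in wt, below Mef2c (24.4) and Sox6 (17.7). This is the difference that the gene was picked for and not a separate result. Sox5 (6.23 ± 1.24), Runx3 (6.09 ± 2.10) and Runx2 (4.75 ± 1.23) formed a lower tier, also with overlapping ranges, near the middle of all tested genes (55.2% of them were below Runx2). Nkx3-2 and Foxa2 were lowest, at 0.608 ± 0.227 and 0.362 ± 0.214 CPM per kilobase. Only the steps from Sox9 to Atoh8 and from Runx2 to Nkx3-2 separated neighbours in all libraries.

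**Figure D1:**
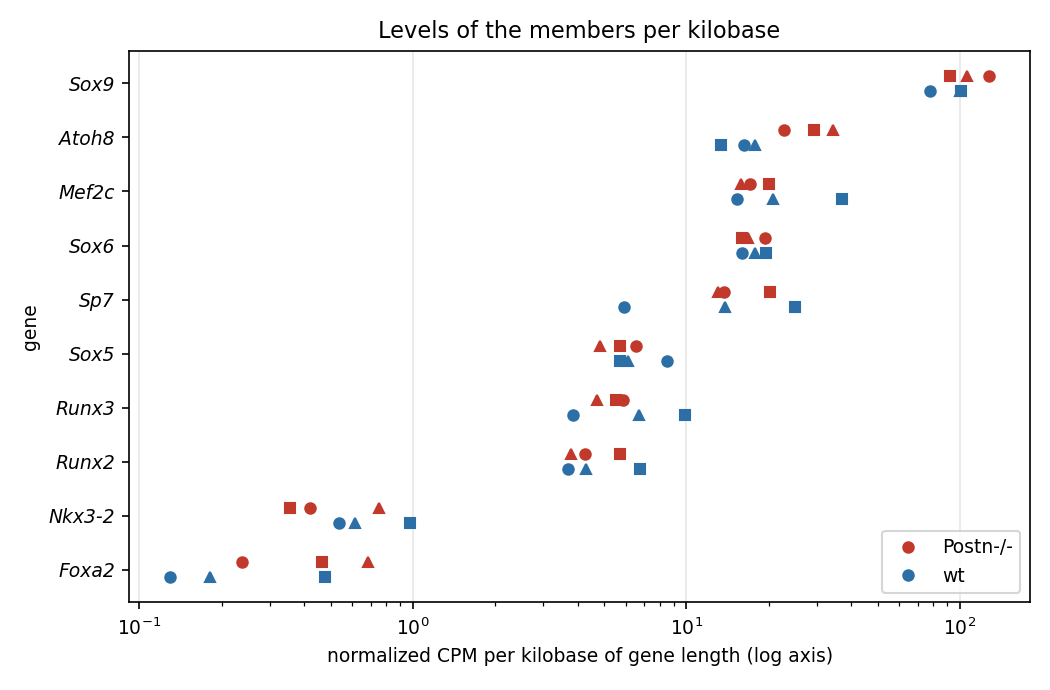
Level of each of the 10 genes in CPM per kilobase of gene length (log axis), with 1 point per library (circle, square and triangle for replicates 1, 2 and 3; red Postn-/-, blue wt). Sox9 lies between 78.0 and 127.6 in all 6 libraries, 7 genes lie between 3.69 and 37.1, and Nkx3-2 and Foxa2 are below 1.

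The question put to the members was whether the loss of Postn was accompanied by a change in these regulators. Apart from Atoh8, the genotypes overlapped for each member and none passed the test. Of the other 9 members, 0 passed the unadjusted threshold of 0.05 when tested with edgeR (quasi-likelihood), and 0 had genotypes that did not overlap. Over all 14533 tested genes the shares were 6.3% and 13.6%. The log2 fold changes (Postn-/- over wt) of the 9 genes had a median of -0.11, with 3 positive and 6 negative, against a median of 0.0042 for all tested genes. After Benjamini-Hochberg adjustment 0.0138% of all tested genes (2 genes, none of them a member) passed at 0.05. With 3 libraries a genotype, the 95% intervals given below are wide for some members, so that a missed threshold does not show equal levels. Whether a lower value reflects fewer cells of a state or less RNA per cell cannot be told apart in bulk libraries.

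**Figure D2:**
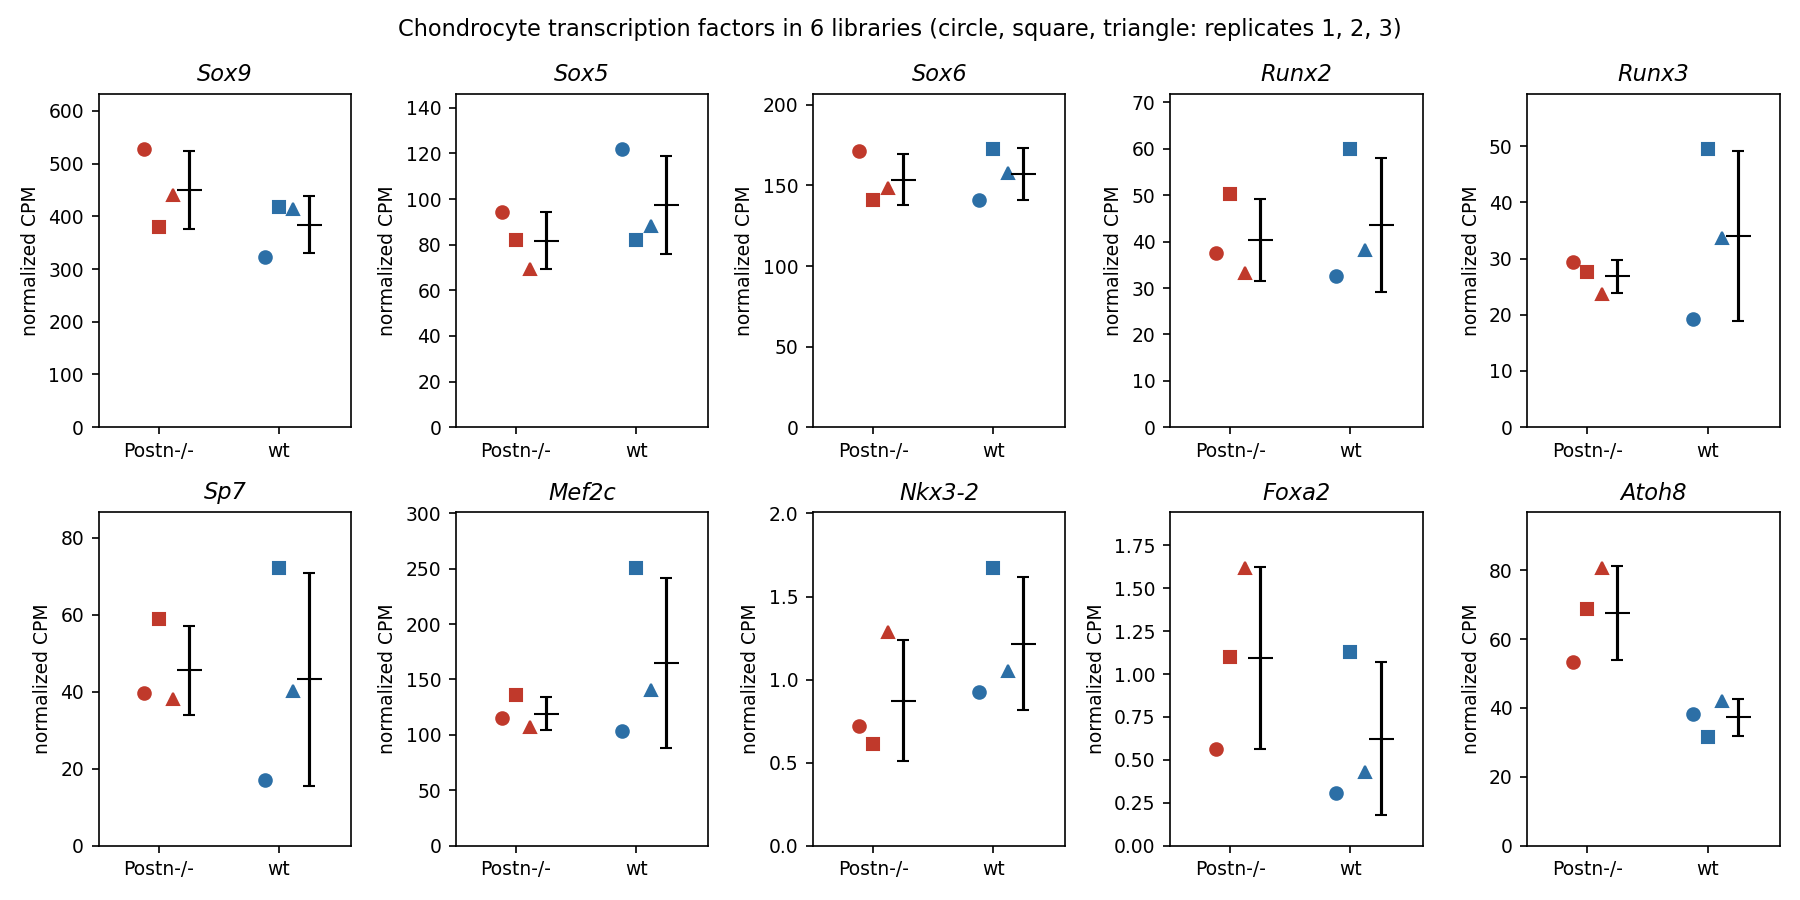
Normalized CPM of each member in each library (circle, square and triangle for replicates 1, 2 and 3), with the mean and SD of each genotype (n = 3) as a bar to the right of the points. The genotypes overlap for every gene but Atoh8, and wt points spread more widely than Postn-/- points for Runx2, Runx3, Sp7 and Mef2c.

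Sox9 (ENSMUSG00000000567, chr11:112782224-112787760, plus strand) was at 527.5, 380.7 and 440.2 CPM in Postn-/- replicates 1, 2 and 3 and at 322.6, 417.2 and 413.1 CPM in wt. The highest library was Postn-/- and the lowest was wt replicate 1, but Postn-/- replicate 2 lay below 2 of the 3 wt libraries. Sox9 had a log2 fold change of 0.23 (SE 0.16, 95% interval -0.15 to 0.60, unadjusted p = 0.198, adjusted p = 0.740). Without wt replicate 1 it was 0.11 (unadjusted p = 0.489). Sox6 (chr7:115471344-116038744, minus strand) was the steadiest member, at 171.4, 140.8 and 148.6 CPM in Postn-/- and 140.8, 172.6 and 157.9 CPM in wt. Its log2 fold change of -0.03 had an interval of -0.31 to 0.25 (unadjusted p = 0.798, adjusted p = 0.953), the narrowest of the 9 tested. Sox5 (chr6:143828425-144781977, minus strand) was at 94.3, 81.9 and 69.3 CPM in Postn-/- against 121.9, 82.2 and 88.2 CPM in wt. Its highest library was wt replicate 1, where Sox9 was lowest, and Postn-/- replicate 1 exceeded 2 wt libraries. Sox5 had a log2 fold change of -0.25 (SE 0.18, interval -0.66 to 0.16, unadjusted p = 0.197), and -0.06 without wt replicate 1. Of the 50-base words of the Sox5 transcripts 8.98% also occur in other genes, and gene counts do not separate the long form of SOX5, the form made in chondrocytes, from the shorter one.

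The balance within this trio was also compared, as the ratio of levels per kilobase in the same library. Sox9 over Sox6 was 6.59, 5.79 and 6.34 in Postn-/- and 4.90, 5.18 and 5.60 in wt. The genotypes did not overlap. The exact two-sided permutation p was 0.1 (0.6 adjusted over the 6 ratios tested), the smallest that 3 against 3 libraries allow, so the test could not reach 0.05. Sox6 over Sox5 ran from 1.88 to 3.48 and Sox9 over Sox5 from 9.20 to 22.1, both with wt replicate 1 lowest and the genotypes overlapping (exact permutation p = 0.6 and 0.3).

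Runx2 (ENSMUSG00000039153, chr17:44495987-44814797, minus strand) was at 37.7, 50.4 and 33.3 CPM in Postn-/- against 32.6, 59.9 and 38.1 CPM in wt. In both genotypes replicate 2 was the highest library, and the genotypes overlapped. Runx2 had a log2 fold change of -0.11 (SE 0.25, interval -0.68 to 0.47, unadjusted p = 0.681, adjusted p = 0.923). Of its 50-base words 5.66% occur in other genes. Supt3 lies over part of Runx2 on the opposite strand (410 to 645 reads a library), and whether the counting used strand is not stated. Runx3 (chr4:135120652-135177990, plus strand), which acts redundantly with Runx2 in chondrocyte maturation, was at 29.3, 27.6 and 23.6 CPM in Postn-/- against 19.2, 49.5 and 33.6 CPM in wt. The 3 Postn-/- libraries lay together inside the wt range. Runx3 had a log2 fold change of -0.34 (SE 0.30, interval -1.04 to 0.35, unadjusted p = 0.288, adjusted p = 0.782).

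Sp7 (chr15:102356609-102366325, minus strand) spread most of the well-expressed members. It was at 39.8, 58.9 and 38.0 CPM in Postn-/- against 17.1, 72.3 and 40.2 CPM in wt, so that the highest wt library was 4.21 times the lowest and the highest Postn-/- library 1.55 times the lowest. The means nearly coincided, at 45.6 ± 11.6 and 43.2 ± 27.7 CPM, and the log2 fold change was 0.08 with an interval of -0.95 to 1.11 (SE 0.45, unadjusted p = 0.863). At this spread the interval takes in changes of either sign. Mef2c (chr13:83504034-83667079, plus strand) was at 115.1, 135.7 and 106.7 CPM in Postn-/- against 103.2, 251.0 and 140.7 CPM in wt. wt replicate 2 was far above the rest, and the Postn-/- libraries lay between the lowest and the middle wt library. Its log2 fold change was -0.47 (SE 0.29, interval -1.15 to 0.21, unadjusted p = 0.151, adjusted p = 0.730).

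For Runx3 and Mef2c the outcome turned on single wt libraries. Without wt replicate 1 the log2 fold changes were -0.63 for Runx3 (unadjusted p = 0.0112) and -0.72 for Mef2c (unadjusted p = 0.0189). Without wt replicate 2 they were 0.03 (unadjusted p = 0.912) and -0.03 (unadjusted p = 0.856). The voomWithQualityWeights model with 2 surrogate variables, which the study's methods describe, also gave both an unadjusted p below 0.05 (0.0106 for Runx3 and 0.00527 for Mef2c), at log2 fold changes of -0.36 and -0.49, but 12.9% of all tested genes passed in that model, against 6.3% in edgeR. Without wt replicate 1 5.44% of the genes tested passed, and without wt replicate 2 8.71%. The same fits without wt replicate 1 gave -0.11 for Sox6 (unadjusted p = 0.424), -0.28 for Runx2 (unadjusted p = 0.280), -0.30 for Sp7 (unadjusted p = 0.318) and -0.66 for Nkx3-2 (unadjusted p = 0.160). Without wt replicate 2 they went the other way for 3 of these, with 0.04 for Sox6 (unadjusted p = 0.765), 0.20 for Runx2 (unadjusted p = 0.343) and 0.67 for Sp7 (unadjusted p = 0.106). Over all alternatives run, the adjusted p of Runx3 was 0.315 to 0.983 and that of Mef2c 0.285 to 0.983.

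**Figure D3:**
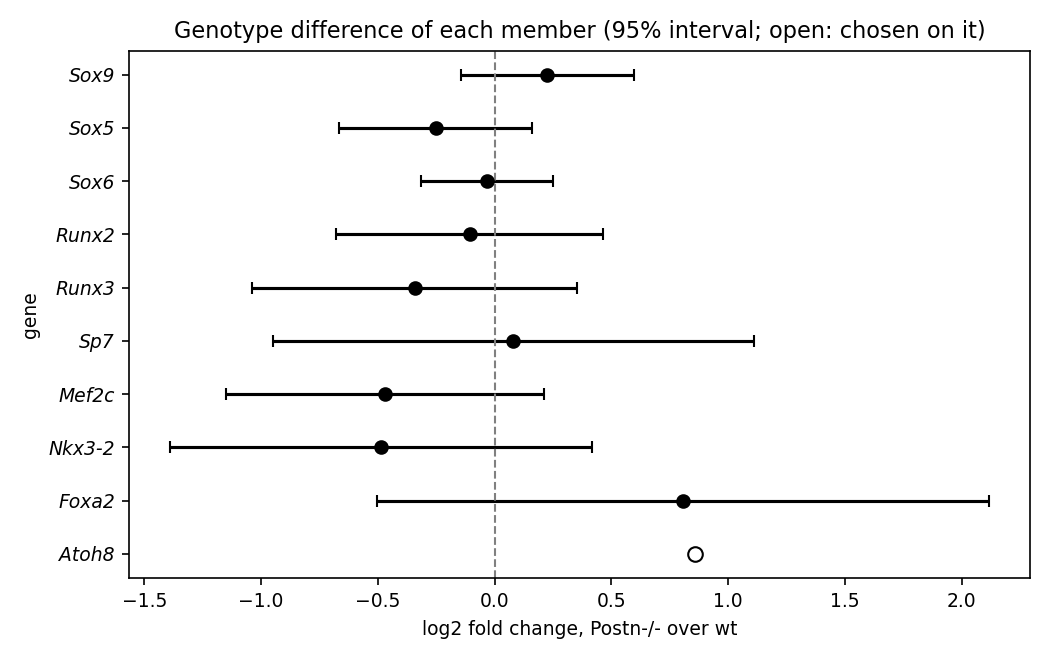
Log2 fold change, Postn-/- over wt, of each member from edgeR, with its 95% interval (bars) and a dashed line at 0. All 9 intervals include 0, that of Sox6 is the narrowest (-0.31 to 0.25), and Atoh8, at 0.86, is drawn open and without an interval since it was chosen on this difference.

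Nkx3-2 and Foxa2, a brake and a promoter of maturation, were measured on few reads. Nkx3-2 (chr5:41761483-41764501, minus strand) had 18, 15 and 27 reads in Postn-/- and 24, 37 and 22 reads in wt, or 0.723, 0.610 and 1.29 against 0.923, 1.67 and 1.05 CPM. Its genotypes overlapped, and the log2 fold change was -0.49 (SE 0.39, interval -1.39 to 0.42, unadjusted p = 0.249). It was -0.86 without Postn-/- replicate 3 (unadjusted p = 0.0708) and -0.19 without wt replicate 2. Foxa2 (chr2:148042877-148046969, minus strand) had 14, 27 and 34 reads in Postn-/- and 8, 25 and 9 reads in wt, or 0.563, 1.10 and 1.62 against 0.308, 1.13 and 0.431 CPM. The highest library was Postn-/- and the 2 lowest were wt, with wt replicate 2 among the Postn-/- values. For Foxa2 the log2 fold change was 0.81 (SE 0.57, interval -0.50 to 2.12, unadjusted p = 0.192, adjusted p = 0.740), 1.55 without wt replicate 2 (unadjusted p = 0.0269), 0.46 without wt replicate 1 (unadjusted p = 0.446) and 0.42 without Postn-/- replicate 3 (unadjusted p = 0.517).

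Atoh8 (ENSMUSG00000037621, chr6:72206177-72235577, minus strand) was at 53.4, 68.7 and 80.8 CPM in Postn-/- against 38.3, 31.5 and 42.1 CPM in wt, from 1328, 1689 and 1695 reads against 997, 697 and 878. This separation is what the gene was picked for. The lowest Postn-/- library was 1.27 times the highest wt library, and the means were 67.6 ± 13.7 and 37.3 ± 5.34 CPM, a 1.81-fold difference (log2 0.86). In Postn-/- its libraries stood in the same order as those of Foxa2, with replicate 3 highest and replicate 1 lowest, and in wt their order was found for no other member. There replicate 2, the highest library of Runx2, Runx3, Sp7 and Mef2c, was the lowest of Atoh8. None of its 50-base words occur in another gene.

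Over the 6 libraries, the genes most like Sox9 in profile, by the root-mean-square difference of log2 CPM centred on each gene's mean over 10024 genes with a mean of at least 5 CPM, were Tspan2 (0.037), Lrrc61 (0.048) and Sbf1 (0.052). The root-mean-square of the Sox9 profile itself was 0.214 and the median difference over all genes was 0.278. Tspan2, for example, was at 62.4, 44.0 and 49.6 CPM in Postn-/- and 38.2, 48.9 and 50.6 CPM in wt. The genes most like Atoh8 were Grin2b (0.112), Cxcl16 (0.151) and Vat1 (0.189), against a median of 0.519. Vat1 was at 68.9, 60.6 and 78.7 CPM in Postn-/- against 42.7, 37.4 and 40.7 CPM in wt. Since Atoh8 was picked for its separate genotypes, genes found by likeness to it tend to share that separation, which is no further result. Likeness over 6 libraries is a description, and the libraries share their depth and composition across genes.

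A pattern that the members had in common lay in the order of the wt libraries. For 8 of the 10 members (80.0%) the wt libraries stood in the same order, replicate 2 highest, replicate 3 between and replicate 1 lowest, an order found in 3464 of the 14533 tested genes (23.8%). The exceptions were Sox5, with the reverse order, and Atoh8. The order was noticed in these data and is given without a test. It was shared by 11 of 16 genes (68.8%) of a list of cartilage matrix genes driven by SOX9 and by 7 of 12 (58.3%) of a list of hypertrophy and bone genes driven by RUNX2, SP7 and MEF2C. It was seen for 6 of 14 relatives and binding partners of the members (42.9%), for 7 of 40 other skeletal transcription factors (17.5%) and for 0 of 8 proliferation markers. The summed level of the proliferation markers was highest in wt replicate 1, at 606.7 CPM, against 344.6 in replicate 2 and 361.6 in replicate 3, and was 232.5, 421.2 and 168.3 CPM in Postn-/-. The summed level of 6 osteoblast markers was 330.8, 1066 and 501.4 CPM in wt and 540.8, 646.4 and 431.7 CPM in Postn-/-, with the osteocyte markers Dmp1 and Sost at most 1.48 CPM in any library. Of the 5 osteoblast markers tested only 2 (40%), Ibsp and Phex, had the wt order. Ibsp was at 126.6, 924.6 and 373.5 CPM in wt, whereas Bglap (148.8, 102.4 and 94.0 CPM) and Dmp1 were highest in wt replicate 1. The part of either list of markers in the order was not tested.

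**Figure D4:**
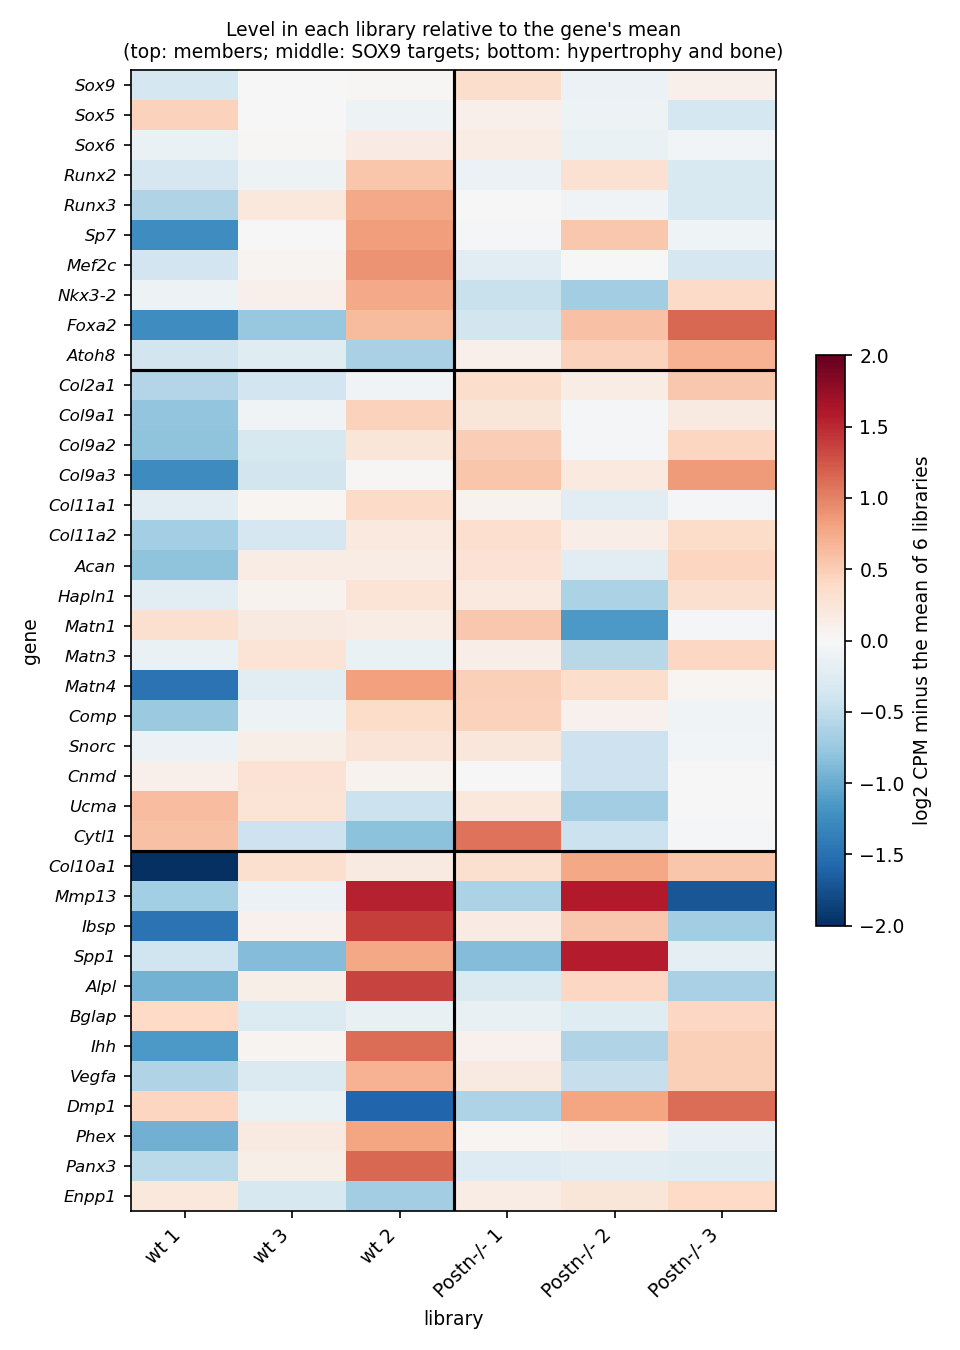
Log2 CPM of each gene in each library minus its mean over the 6 libraries (red above, blue below, colours capped at 2), for the 10 members (top), 16 cartilage matrix targets of SOX9 (middle) and 12 tested hypertrophy and bone targets (bottom), with wt libraries ordered 1, 3, 2. From wt 1 to wt 2 most rows go from blue to red, with Sox5 and Atoh8 among the exceptions. Of the members only Atoh8, picked for this separation, is above its mean in all Postn-/- libraries and below it in all wt libraries.

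The targets of the factors were examined next. Like the members, all gene lists used here were chosen with earlier results of these data known. Of the 16 SOX9 targets 3 were higher at an unadjusted p of at most 0.05 and 0 were lower, against 3.95% and 2.35% of all tested genes. The 3 were Col2a1, Col9a3 and Col11a2. The other collagens of the list, Col9a1, Col9a2 and Col11a1, had log2 fold changes of 0.18, 0.55 and -0.14 and did not pass (unadjusted p = 0.536, 0.0674 and 0.496). Col2a1, the main collagen of cartilage, was at 15767, 13696 and 18081 CPM in Postn-/- against 8271, 11867 and 9567 CPM in wt, without overlap (log2 fold change 0.68, SE 0.21, unadjusted p = 0.0125). Col9a3 had a log2 fold change of 1.00 (SE 0.31, unadjusted p = 0.0128) and Col11a2 of 0.52 (SE 0.21, unadjusted p = 0.0406). The p of Col2a1 was 0.0522 without wt replicate 3, and that of Col11a2 rose above 0.05 without any of Postn-/- replicates 1 and 3 and wt replicates 1 and 3. No gene of the list passed after adjustment (adjusted p = 0.717 for all 3), and the median log2 fold change of the list was 0.22. It was -0.05 without wt replicate 1 and 0.05 without Postn-/- replicate 1, and the number of genes higher was 1 without wt replicate 3, 2 without wt replicate 1 or Postn-/- replicates 1 or 3, and 5 without wt replicate 2. With surrogate variables in the voomWithQualityWeights model 6 genes were higher and 2 lower, and without a filter on low counts 4 were higher and 1 lower. Cnmd (chondromodulin), also without overlap of the genotypes, lay the other way, at 4693, 3542 and 4702 CPM in Postn-/- against 5071, 4968 and 5781 CPM in wt (log2 fold change -0.29, unadjusted p = 0.132). Comp, a glycoprotein of the matrix, was at 7869, 6042 and 5444 CPM in Postn-/- and 3427, 7355 and 5311 CPM in wt (unadjusted p = 0.383).

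Of the 13 hypertrophy and bone targets 12 were tested, and 0 were higher and 0 lower at the unadjusted threshold, near the 3.95% and 2.35% of all tested genes, with a median log2 fold change of -0.08. The median was -0.35 without wt replicate 1, with 1 gene higher and 2 lower, 0.44 without wt replicate 2, 0.07 without Postn-/- replicate 1 and -0.22 without Postn-/- replicate 2, with 1 gene lower. It was 0.10 in the voomWithQualityWeights model without surrogate variables. With surrogate variables 2 genes were higher and 2 lower, where 12.9% of all tested genes passed in either direction, and without a filter on low counts 2 were higher and 1 lower, where 5.24% passed. Without wt replicate 1 and Postn-/- replicate 2 the shares of all tested genes that passed were 5.44% and 7.73%. The spread between libraries was large. Mmp13, the main collagenase of hypertrophic cartilage, was at 922, 4309 and 439.2 CPM in Postn-/- and 897.5, 4163 and 1319 CPM in wt, with replicate 2 highest in both genotypes (log2 fold change -0.17, SE 0.85). It was -1.64 without Postn-/- replicate 2 (unadjusted p = 0.0447) and 0.77 without wt replicate 2 (unadjusted p = 0.399), and its sign was also positive without Postn-/- replicates 1 or 3. Spp1 (osteopontin) was at 1681, 9107 and 2689 CPM in Postn-/- and 2326, 5250 and 1680 CPM in wt, again highest in replicate 2 (log2 fold change 0.54, and -0.50 without Postn-/- replicate 2). Replicate 2 was also the highest library of Runx2, Sp7 and Mef2c in both genotypes. Chosen after their values were seen, Ibsp, Alpl and Panx3 had their highest wt level in replicate 2, at 924.6, 2294 and 944.0 CPM, and their lowest in replicate 1, at 126.6, 464.6 and 292.7 CPM. Other genes of the list went the opposite way. Enpp1 was at 117.2, 62.0 and 81.1 CPM and Dmp1 at 0.923, 0.226 and 0.623 CPM in wt replicates 1, 2 and 3, and Bglap was also highest in wt replicate 1. Col10a1, the collagen that defines hypertrophy, was at 212.8 CPM in wt replicate 1 and at 1076 to 1610 CPM in the other 5 libraries, also named after its values were seen.

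Among 19 relatives and partners of the members 14 were tested, with 2 higher and 0 lower at the unadjusted threshold, against 3.95% and 2.35% of all tested genes, and 0 after adjustment. The count was 0 and 0 without Postn-/- replicate 1, 1 and 0 without wt replicates 1 or 3, 1 and 1 without Postn-/- replicate 2, 3 and 1 without wt replicate 2, with surrogate variables or without a filter on low counts, and the median log2 fold change of 0.11 was -0.03 without wt replicate 1. Runx1, the family member active in early chondrocytes, was at 14.4, 13.9 and 8.91 CPM in Postn-/- and 5.69, 7.96 and 8.34 CPM in wt (log2 fold change 0.76, SE 0.24, unadjusted p = 0.0134, and unadjusted p = 0.0504 without Postn-/- replicate 1). Cbfb, the partner subunit of all RUNX proteins, had overlapping genotypes, at 63.6, 67.1 and 64.6 CPM in Postn-/- and 47.7, 79.1 and 58.8 CPM in wt. Of the class IIa histone deacetylases, which bind and restrain MEF2 and RUNX2, Hdac5 was at 15.4, 12.9 and 11.0 CPM in Postn-/- and 7.54, 10.5 and 9.97 CPM in wt (log2 fold change 0.49, SE 0.19, unadjusted p = 0.0353). That p rose above 0.05 without any of 4 libraries, Postn-/- replicates 1 and 2 and wt replicates 1 and 3 (0.0574 to 0.129). The call of Hdac5 was also lost with the replicate block (unadjusted p = 0.0659) and in the voomWithQualityWeights model without surrogate variables (0.0575). Hdac4 was at 51.6, 63.3 and 43.9 CPM in Postn-/- and 79.0, 54.9 and 75.8 CPM in wt (log2 fold change -0.40, SE 0.18, unadjusted p = 0.0591), with the genotypes overlapping. It passed the unadjusted threshold without Postn-/- replicate 2 (0.0206), without wt replicate 2 (0.0116), without a filter on low counts (0.0193) and in the voomWithQualityWeights model without and with surrogate variables (0.0198 and 0.0495).

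Of 47 other transcription factors of the skeleton 40 were tested, with 2 higher and 0 lower at the unadjusted threshold, 0 after adjustment and a median log2 fold change of 0.11. This is near the 3.95% and 2.35% of all tested genes. The count was 7 higher and 1 lower without wt replicate 1 (median 0.24), 0 and 0 without Postn-/- replicate 1, 3 and 0 without Postn-/- replicate 3 or wt replicate 2 (median 0.04 for the latter), 1 and 0 without wt replicate 3 (median 0.04), and 6 and 1 with surrogate variables. Under upper quartile normalization it was 4 and 0. Zfp219, a partner of SOX9, was at 6.71, 6.63 and 5.10 CPM in Postn-/- and 3.88, 4.52 and 3.21 CPM in wt (log2 fold change 0.67, unadjusted p = 0.0159, and 0.0535 and 0.0582 without Postn-/- replicate 1 and wt replicate 3). Msx1, a homeobox factor of limb and craniofacial mesenchyme, was at 3.98, 2.97 and 3.38 CPM in Postn-/- and 2.35, 1.54 and 2.20 CPM in wt (log2 fold change 0.76, unadjusted p = 0.0169, and 0.0595 and 0.0535 without Postn-/- replicate 1 and wt replicate 2). Zbtb20 and Hif1a, the highest of the list in CPM before any correction for gene length, had overlapping genotypes, with log2 fold changes of 0.15 (unadjusted p = 0.286) and 0.17 (unadjusted p = 0.593). Hif1a, the hypoxia factor on which chondrocytes depend, was at 158.6 CPM in wt replicate 1 and at 296.0 to 410.5 CPM in the other 5 libraries.

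Markers of other cells and states were examined as well. For all 10 marker lists, chondrocyte markers included, the summed levels of the genotypes overlapped. Within some lists the genes nevertheless had differences of like sign. All 8 proliferation markers had a negative log2 fold change (median -0.66), and Ccnb1 among them was lower at the unadjusted threshold. The median was -0.32 without wt replicate 1, with 0 genes lower, and -1.10 without Postn-/- replicate 2, with 7 lower, and 0 to 7 were lower over all alternatives. All 4 superficial zone markers had a positive one (median 0.66), as did all 4 endothelial markers tested (median 0.32). None of these passed the threshold in the filtered edgeR fit of all 6 libraries without a block. The superficial zone median was 1.00 without wt replicate 1, with Clu and Cilp higher, 0.41 without wt replicate 2, with 3 of 4 positive, and 0.15 without Postn-/- replicate 1. Prg4, Clu and Cilp passed as higher with the replicate block and without a filter on low counts, where 8.17% and 5.24% of all tested genes passed. Prg4 and Clu passed with surrogate variables (12.9% of all tested genes). Prg4 alone passed without Postn-/- replicate 2, and Cilp alone with the DESeq2 Wald test and without Postn-/- replicate 3. The endothelial median was 0.12 without wt replicate 1 and -0.06 without Postn-/- replicate 3. Endothelial markers, of interest for Atoh8, which is also expressed in endothelium, summed to 6.83 to 11.3 CPM over 6 genes in Postn-/- and 5.15 to 9.68 CPM in wt, with Cdh5 at most 0.431 CPM. Muscle and pericyte markers summed to 9.97 to 11.6 CPM in Postn-/- and 8.27 to 20.3 CPM in wt, with Rgs5 higher and Acta1 lower at the unadjusted threshold, Acta1 without overlap of the genotypes. The call of Rgs5 was lost without Postn-/- replicates 1 or 3 or wt replicates 1 or 2, and that of Acta1 without Postn-/- replicate 1 or wt replicate 2. Macrophage and osteoclast markers summed to 366.6 to 478.3 CPM and 323.8 to 438.4 CPM, and fibroblast markers to 1664 to 3270 CPM and 2116 to 3387 CPM. Red blood cell markers summed to at most 0.769 CPM and lymphocyte markers to at most 2.03 CPM in any library. The part of these cells in the values of the members was not tested.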

How the data were processed

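RNA was sequenced from 6 chondrocyte samples, 3 Postn-/- and 3 wt by the sample labels, as 50-base single-end reads. The study gives 3 mice per genotype, and p-values measure the spread between these samples. The authors aligned reads with STAR 2.0.4b to Ensembl release 76 and deposited the raw count of uniquely aligned reads per gene from featureCounts 1.4.5. The authors also deposited CPM and RPKM, derived from the counts, which were only checked against them. The submitters' processing notes name build mm9, whereas gene coordinates in the files are those of GRCm38, on which GENCODE M21 matched 40340 of 41388 identifiers (97.5%).

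In R 4.3.3, 355 rRNA genes were removed, and the 14533 others above 1 CPM in 2 or more samples were tested. edgeR 4.0.16 (TMM, quasi-likelihood test, no covariates, Benjamini-Hochberg over all tested genes) compared the genotypes, and SE is the absolute log2 fold change over the root of F. The biological coefficient of variation common to all genes was 0.208, and the test was checked on simulated data. Alternatives were DESeq2 1.42.0, its size factors, upper quartile scaling, limma 3.58.1 voomWithQualityWeights, alone or with surrogate variables (sva 3.50.0), other filters, a block for the replicate number, and each library left out.

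Members and gene lists were chosen with earlier results of these data known. Named genes were all members, Postn, and from each list up to 4 genes with the smallest p at or under 0.05 and the 2 with the highest mean, plus the 3 genes most like Sox9 and Atoh8. Other genes of the lists and markers were named after their values were seen. No library repeated another (chi-square per degree of freedom at least 26.5 over 15 pairs). Intervals on counts and the 3-read floor cover counting error only.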

Additional observations from a re-analysis of the deposited data

How the results depend on the processing

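The direction of Sox9, Sox5, Mef2c, Nkx3-2, Foxa2, Postn, Col2a1, Col9a3, Col11a2, Comp, Runx1, Hdac5, Hdac4, Zfp219, Msx1 and Zbtb20 was kept under every alternative in which they could be fitted (Nkx3-2 and Foxa2 were not above 1 CPM in all 6 libraries). Signs turned only where a library was left out, with log2 fold changes from -0.118 to 0.0407 for Sox6, -0.29 to 0.20 for Runx2, -0.629 to 0.0275 for Runx3, -0.30 to 0.67 for Sp7, -1.64 to 0.77 for Mmp13, -0.50 to 1.17 for Spp1, -0.0837 to 0.29 for Cbfb and -0.13 to 0.48 for Hif1a.

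Of the 9 members tested, 0 passed the unadjusted threshold in edgeR. The count was 2 with surrogate variables in the voomWithQualityWeights model (Runx3 and Mef2c), 1 without a filter on low counts (Mef2c, unadjusted p = 0.030) and 0 to 2 with each library left out (2 without wt replicate 1 and 1 without wt replicate 2). The number of genes at an unadjusted p of at most 0.05, 916, was 1882 with surrogate variables (12.9% of those tested, against 6.3%), 1797 without a filter (5.24% of 34295) and 425 to 1257 with each library left out, lowest without Postn-/- replicate 3 (2.98%). The number of genes past the adjusted threshold, 2, was 1 under upper quartile normalization, 10 with the DESeq2 Wald test, 1 with voomWithQualityWeights, 9 without a filter, 0 with more than 1 CPM required in all 6 libraries (where 806 genes passed unadjusted) and 1 to 2 with each library left out. The cause was not tested.

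With the replicate block, 1 gene passed the adjusted threshold, 1188 the unadjusted one, and 0 of the 9 members. The SOX9 targets had 4 higher and 1 lower, the hypertrophy targets 1 and 0, the relatives 1 and 0 and the other factors 3 and 0. The superficial zone markers had 3 higher (Prg4, Clu and Cilp) and 0 lower. Of the calls of Col2a1, Col9a3, Col11a2, Runx1, Hdac5, Zfp219 and Msx1, that of Hdac5 was lost (unadjusted p = 0.0659), as it was with voomWithQualityWeights (0.0575). Deviations from the genotype mean correlated at 0.082, 0.155 and 0.143 for libraries of the same number and at -0.13 to 0.0143 for other pairs. Of the 6 libraries 6 were closest to their own number, a hint from the data, since the labels do not say that numbers pair samples. The deviations of a gene cancel out within each genotype, so these correlations are not independent of each other. Foxa2 and Nkx3-2 were counted with only 8 to 37 reads per library.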

Other observations

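The marker Prg4 and 4 transcription factors associated with the superficial zone of cartilage were highest in replicate 1 of both genotypes. Prg4 (lubricin), the lubricant of the joint surface, was at 838.1, 205.6 and 421.8 CPM in Postn-/- replicates 1, 2 and 3 and at 438.7, 130.8 and 279.3 CPM in wt. Creb5, a factor that drives Prg4, was at 51.2, 15.1 and 21.3 CPM in Postn-/- and 75.0, 12.1 and 28.6 CPM in wt. Osr1 was at 12.3, 7.16 and 7.96 CPM against 20.5, 7.10 and 9.92 CPM, Osr2 at 12.4, 4.56 and 7.34 CPM against 17.9, 3.48 and 4.74 CPM, and Erg at 6.67, 3.70 and 5.72 CPM against 6.54, 2.49 and 4.70 CPM. Replicate 2 was the lowest library of all 5 genes in both genotypes, whereas Runx2, Sp7 and Mef2c were highest there. These genes were picked with their values known. Prg4 and Erg are both in the list of 4 superficial zone markers. The other genes of that list, Clu and Cilp, did not both have replicate 2 lowest in Postn-/-. The genotypes overlapped for each of the 5 genes, and none passed edgeR's test between genotypes without a block (unadjusted p = 0.190 for Prg4 and 0.283 to 0.862 for the other 4). Prg4 was higher at the unadjusted threshold with the replicate block, with surrogate variables, without a filter on low counts and without Postn-/- replicate 2. In these fits 8.17%, 12.9%, 5.24% and 7.73% of the genes tested passed. The order of the libraries was not tested, and the share of all tested genes with this order is not given here.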
